A study of Mus musculus with 12 samples.

Results

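The comparison set 4 libraries labelled Old_CP2 (replicates 11, 12, 13 and 15) against 4 labelled Young (replicates 1, 3, 4 and 5), which are 8 of the 12 mouse brain libraries of the study and were taken by those labels. Young mice were 3 months old, wild type, of strain label C57BL/6, and received no treatment. Old_CP2 mice were 23 months old and wild type, with the strain label C57BL/6;SJL-Tg. From the age of 9 months they drank water with CP2, described by the submitters as an inhibitor of mitochondrial complex I, at 25 mg per kg per day in 0.1% polyethylene glycol (PEG). Age, strain label, CP2 and PEG therefore all differ between the groups and cannot be told apart in this comparison. The 4 libraries labelled Old (replicates 7, 8, 9 and 10) came from mice of the same age, genotype and strain label that drank 0.1% PEG alone. They are no part of the contrast, and their values are set beside those of the treated mice. The series' design text speaks of APP/PS1 transgenic mice, whereas every sample title begins with NTG and every genotype label reads wild type, and this conflict was not settled here. No label states that the libraries of a group came from separate animals, so p-values measure the spread between libraries. Each library was made from total RNA of a brain cross-section that took in hippocampus and cortex.

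In the ageing rodent brain, microglia, the resident phagocytes, and astrocytes, which support neurons and vessels, are known to take on reactive states, and the formation of new neurons and of myelin is known to slow. Complex I is the entry point of the mitochondrial respiratory chain for electrons from NADH. Its partial inhibition shifts the balance of cellular energy and can act on the energy sensor AMPK. A bulk library sums the RNA of all cells in the piece of tissue, so fewer cells of a type and less RNA per cell cannot be told apart.

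Depth was 77469073 to 91549618 counts in Young and 78021395 to 99449665 in Old_CP2. Across genes, log2 CPM (the count scaled to a common library size) correlated at 0.995 to 0.997 within Young, 0.994 to 0.997 within Old_CP2 and 0.989 to 0.995 between the groups. The first principal component of the 8 libraries held 44.1% of the variance. Young lay at -22.4 to -16.7 on it, Old_CP2 13 at 8.48, Old_CP2 12 at 16.5, Old_CP2 15 at 24.8 and Old_CP2 11 at 30.4. Xist, the RNA of X inactivation, was at 680 to 719 CPM in Young and 923 to 1029 in Old_CP2, and the Y-linked Ddx3y had 4 and 2 reads, so all libraries had the pattern of females. Markers of hippocampal fields summed to 396 to 421 CPM in Young and 394 to 445 CPM in Old_CP2, and those of cortical layers to 783 to 899.5 and 724 to 906 CPM, so both labelled regions were present. Libraries 11 and 15 of Old_CP2 stood apart in choroid plexus, the epithelium that makes cerebrospinal fluid. Its 15 listed genes summed to 1284, 1395, 2063 and 1879 CPM in Young, but to 31.8, 874, 858 and 74.7 CPM in Old_CP2 11, 12, 13 and 15 and to 35.4 to 1019 CPM in vehicle Old. Every Old_CP2 library was below every Young library, yet none of the 15 genes was called in edgeR or DESeq2. Limma voom called 3, edgeR called 1 without Old_CP2 13, and 10 had an unadjusted p under 0.05, as did 23.2% of all genes tested. Many counts and calls below are therefore also given without Old_CP2 11 and 15, which leaves 2 treated libraries, and with a choroid plexus term in the model, which takes up part of any difference between the groups because their levels do not overlap.

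Of 22553 genes tested, 1707 (7.57%) differed between Old_CP2 and Young at an adjusted p under 0.05 in edgeR's quasi-likelihood test. Of these, 1045 were higher in Old_CP2 (4.63% of those tested) and 662 were lower (2.94%), and 425 (1.88%) changed more than 2-fold, 270 of them upwards (1.2%) and 155 downwards (0.687%). The 4 and 4 values did not overlap for 3493 genes (15.5%), and 5234 genes (23.2%) had an unadjusted p under 0.05. Counts in the gene lists are read against these shares. Without Old_CP2 11 and 15 there were 491 calls, and with the choroid plexus term there were 295. The number was 827 without Old_CP2 11, and without Young 4, Old_CP2 12 or Young 1 it was 1036, 1043 or 1050. In the same fit, 10 genes (0.0443%) differed between Old_CP2 and vehicle Old. The plot of all tested genes shows the spread of the changes.

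**Figure D1:**
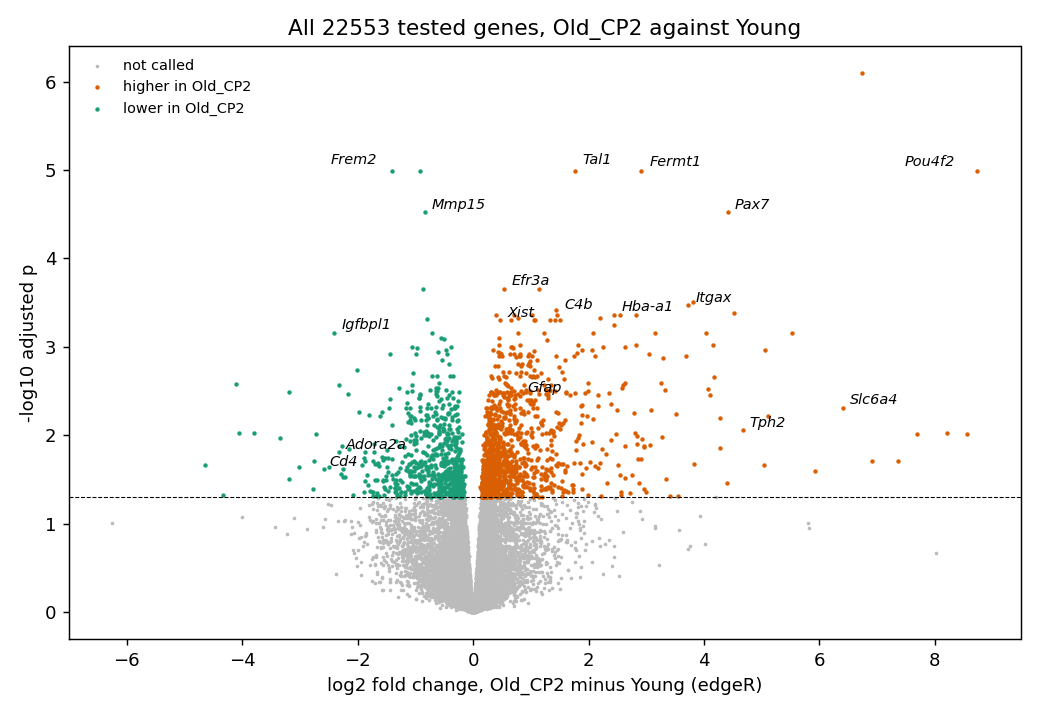
Each point is 1 of the 22553 tested genes, with the log2 fold change of Old_CP2 against Young on the x axis and -log10 of the edgeR adjusted p on the y axis. The dashed line is an adjusted p of 0.05, above which lie 1045 genes higher in Old_CP2 (orange) and 662 lower (green). Called changes ran from -4.64 to 8.73.

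The largest increases among the genes eligible for naming were in genes of neurons that lie in the midbrain and hindbrain, together with a microglial integrin. Eligibility required that Young and Old_CP2 values did not overlap, so their separation in genes named by size or smallest p was set in advance. Pax7 (ENSMUSG00000028736, chromosome 4, 139737062 to 139833528, mm10), a transcription factor of the dorsal midbrain, was at 0.0518, 0.155, 0.179 and 0.312 CPM in Young and 5.06, 3.06, 2.4 and 4.67 CPM in Old_CP2, against 3.85, 4.07, 4.11 and 3.97 CPM in vehicle Old, each set in the order of the replicate numbers. All old libraries, treated or not, lay above all young ones (log2 fold change 4.41 ± 0.349 SE, adjusted p = 3.02e-05). Tfap2b, a transcription factor of midbrain and hindbrain neurons, was at 0.168, 0.454, 0.383 and 0.602 CPM in Young and 8.58, 4.22, 4.54 and 5.43 CPM in Old_CP2 (log2 fold change 3.80 ± 0.382 SE, adjusted p = 0.00031). Here too the groups did not overlap, as eligibility required. Its vehicle Old level was 7.69 ± 3.43 CPM (adjusted p against Old_CP2 = 0.858). En1, a homeobox factor of the midbrain-hindbrain boundary, was at 0.0647, 0.741, 0.0511 and 0.212 CPM in Young and 2.46, 2.84, 1.54 and 5.84 CPM in Old_CP2 (log2 fold change 3.52 ± 0.628 SE, adjusted p = 0.00577). Itgax, a microglial integrin, rose from 0.146 ± 0.0572 CPM to 1.97 ± 0.706 CPM (log2 fold change 3.73 ± 0.38 SE, adjusted p = 0.000338). The serotonin genes Slc6a4 and Tph2 and the glycine transporter gene Slc6a5 complete the 7 largest increases and are described with their cell types. Calls were lost with the choroid plexus term for En1 (adjusted p = 0.0691).

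Among the increases with the smallest p, Fermt1 (ENSMUSG00000027356, chromosome 2, 132904389 to 132945906, mm10), a kindlin that activates integrins, was at 0.427, 0.443, 0.498 and 0.491 CPM in Young and 4.46, 3.78, 2.55 and 3.2 CPM in Old_CP2, against 2.19, 1.84, 2.32 and 2.95 CPM in vehicle Old (log2 fold change 2.91 ± 0.198 SE, adjusted p = 1.03e-05). Tal1 (ENSMUSG00000028717, chromosome 4, 115056426 to 115071755, mm10), a factor of blood formation and of inhibitory neurons of the midbrain, was at 2.45, 2.33, 2.41 and 2.99 CPM in Young and 10.6, 8.06, 7.16 and 8.96 CPM in Old_CP2 (log2 fold change 1.77 ± 0.126 SE, adjusted p = 1.03e-05). In both, each treated library was above each young one, as eligibility required. Rspo2, a secreted amplifier of Wnt signalling, rose from 10.4 ± 1.45 to 22.8 ± 2.98 CPM (log2 fold change 1.13 ± 0.11 SE, adjusted p = 0.00022). Irx3, a homeobox factor, rose by 1.44 and Efr3a, which recruits a phosphoinositide kinase to the plasma membrane, by 0.54 (adjusted p = 0.000387 and 0.00022). Irx3 overlaps the model Irx3os and Efr3a the model Gm20405, and counting without strand cannot separate these pairs. None of these 5 was called between Old_CP2 and vehicle Old, where their adjusted p ranged from 0.488 to 0.993.

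The largest decreases were in genes of several sources. Igfbpl1 (ENSMUSG00000035551, chromosome 4, 45809468 to 45826923, mm10), a marker of newborn neurons, was at 1.79, 1.81, 2.04 and 1.49 CPM in Young and 0.354, 0.265, 0.282 and 0.446 CPM in Old_CP2, against 0.31, 0.147, 0.533 and 0.361 CPM in vehicle Old (log2 fold change -2.41 ± 0.288 SE, adjusted p = 0.0007). The young and old libraries were separated by a wide gap, although eligibility required that Young and Old_CP2 did not overlap. Adora2a, the adenosine receptor of striatal projection neurons, was at 23.6, 19.4, 10.8 and 7.09 CPM in Young and 1.57, 5.22, 3.47 and 1.86 CPM in Old_CP2 (log2 fold change -2.32 ± 0.504 SE, adjusted p = 0.0157). Young 5 was nearest to the treated libraries. Wnt9b, a Wnt ligand, was at 10.4, 5.13, 8.24 and 7.38 CPM in Young and 0.801, 2.74, 3.22 and 1.77 CPM in Old_CP2 (log2 fold change -1.87 ± 0.423 SE, adjusted p = 0.0194). Tmem212, an ependymal gene, fell by 1.89, the T cell coreceptor Cd4 by 1.87, the ubiquitin ligase gene Sh3rf2 by 1.81 and Adra2b, an adrenergic receptor, by 1.80 on the log2 scale (adjusted p = 0.0181, 0.0153, 0.0362 and 0.00583). Cd4 was at 3.2, 2.51, 1.24 and 0.814 CPM in Young and 0.416, 0.56, 0.499 and 0.644 CPM in Old_CP2. Leaving out 1 library ended the call of Adora2a without Old_CP2 11 (adjusted p = 0.0505), Wnt9b without Young 1 (adjusted p = 0.0521), Tmem212 without Old_CP2 11 or 12 (adjusted p = 0.051 to 0.0561), Cd4 without Old_CP2 11 (adjusted p = 0.0525) and Sh3rf2 without Young 1, 3 or 4 or Old_CP2 11 or 15 (adjusted p = 0.0638 to 0.0977). Further losses occurred without Old_CP2 11 and 15 for Adora2a, Wnt9b, Tmem212, Cd4, Sh3rf2 and Adra2b (adjusted p = 0.0555 to 0.177) and with the choroid plexus term for Adora2a, Wnt9b, Tmem212, Cd4, Sh3rf2 and Adra2b (adjusted p = 0.0873 to 0.282).

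Decreases of less than 2-fold included those of Mmp15, Hr, Inf2 and Tmem163. Mmp15 (ENSMUSG00000031790, chromosome 8, 95352268 to 95374293, mm10), a membrane-bound metalloproteinase, was at 43.4, 43.2, 42.3 and 38.1 CPM in Young and 21.5, 24, 23.5 and 24.5 CPM in Old_CP2 (log2 fold change -0.84 ± 0.067 SE, adjusted p = 3.02e-05). Hr, a nuclear corepressor of hormone receptors, was at 53.6, 42.9, 42.2 and 39.3 CPM in Young and 23.3, 27.2, 26.1 and 26.1 CPM in Old_CP2 (log2 fold change -0.79 ± 0.0883 SE, adjusted p = 0.000483). Inf2, an actin-assembling formin, fell by 0.72 and Tmem163, a zinc transporter, by 0.55 on the log2 scale (adjusted p = 0.0007 and 0.00079). In each of the 4, no treated library reached the lowest young one, as eligibility for naming required. Their vehicle Old means were 25.7, 28.9, 77.9 and 20 CPM, against 23.4, 25.7, 74.2 and 20.3 CPM in Old_CP2. Reads of Tmem163 can also come from the overlapping gene Mgat5.

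Between Old_CP2 and vehicle Old, 10 of 22553 genes were called (0.0443%). Frem2 (ENSMUSG00000037016, chromosome 3, 53513939 to 53657355, mm10), an extracellular matrix protein of basement membranes, was at 9.32, 12.8, 11.2 and 11.1 CPM in Young and 3.86, 4.1, 4.19 and 4.64 CPM in Old_CP2, against 13.3, 12.4, 12.6 and 14.7 CPM in vehicle Old. All 4 treated libraries lay below all 8 others, by -1.40 ± 0.101 SE on the log2 scale against Young (adjusted p = 1.03e-05) and by -1.66 against vehicle Old (adjusted p = 4.04e-06). Aox4, an aldehyde oxidase, was at 2.93, 2.4, 1.71 and 2.98 CPM in Young and 1.24, 1.06, 1.19 and 1.09 CPM in Old_CP2, against 2.93, 3.44, 3.3 and 1.96 CPM in vehicle Old (log2 fold change -1.13 ± 0.2 SE, adjusted p = 0.00554; against vehicle Old adjusted p = 0.0382). It overlaps the model Gm15759. Mypn, a sarcomere protein, was at 2.63, 1.79, 1.81 and 2.21 CPM in Young and 4.89, 4.94, 3.78 and 3.2 CPM in Old_CP2, against 1.7, 1.94, 2.23 and 1.98 CPM in vehicle Old (log2 fold change 1.00 ± 0.166 SE, adjusted p = 0.00404; against vehicle Old adjusted p = 0.0404). Rbm46, an RNA-binding protein of germ cells, was at 0.453, 0.398, 0.447 and 0.692 CPM in Young and 1.61, 1.46, 1.46 and 1.04 CPM in Old_CP2, against 0.63, 0.353, 0.335 and 0.234 CPM in vehicle Old (log2 fold change 1.48 ± 0.277 SE, adjusted p = 0.00723; against vehicle Old adjusted p = 0.0411). For Mypn and Rbm46 every treated library was the higher. These 4 genes and the alpha globins were named because they were already known to differ between treated and vehicle mice in these data, so that difference is given as a description. A call was lost without Old_CP2 11 and 15 for Aox4 (adjusted p = 0.0545) and with the choroid plexus term for Mypn and Rbm46 (adjusted p = 0.0506 to 0.0783).

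Red blood cell genes had the largest share of called members among the lists. Of 8 tested, 7 rose and 0 fell, against 4.63% of all genes tested, and their median log2 fold change was 2.10, against -0.01 over all genes. The lists were chosen with earlier results of these data known, the alpha globins among them, so this rank and share are a description. Hba-a1 and Hba-a2 share 537 of 538 aligned transcript bases and Hbb-bs and Hbb-bt 93%, so these members are not separate measurements. The count stayed at 7 without each library in turn, without Old_CP2 11 and 15, and with the choroid plexus term. Hba-a1, an alpha globin gene of adult haemoglobin, was at 12.2, 13.7, 13 and 14.7 CPM in Young and 63.6, 38.6, 101 and 88 CPM in Old_CP2, against 25.1, 13.3, 15.4 and 16.9 CPM in vehicle Old. The treated libraries lay above the 8 others, with Old_CP2 12 lowest (log2 fold change 2.44 ± 0.26 SE, adjusted p = 0.000433; against vehicle Old adjusted p = 0.00653). Hba-a2, the second alpha globin gene, was at 11.6, 14.9, 18 and 10.2 CPM in Young and 48.1, 36.5, 81.2 and 61.3 CPM in Old_CP2, against 15.5, 9.96, 14.4 and 7.91 CPM in vehicle Old (log2 fold change 2.05 ± 0.266 SE, adjusted p = 0.00109; against vehicle Old adjusted p = 0.00526). The beta globin gene Hbb-bs was at 39.8, 17.5, 27.3 and 38.5 CPM in Young and 106, 97.1, 165 and 167 CPM in Old_CP2, against 62, 33.6, 52.7 and 32.6 CPM in vehicle Old (adjusted p = 0.00128; against vehicle Old adjusted p = 0.0981). Alas2, the first enzyme of haem synthesis in red cell precursors, was at 3.11, 2.2, 2.17 and 1.72 CPM in Young and 7.94, 8.1, 13.5 and 9.37 CPM in Old_CP2, against 4.51, 2.25, 4.12 and 2.82 CPM in vehicle Old (log2 fold change 2.08 ± 0.247 SE, adjusted p = 0.0007; against vehicle Old adjusted p = 0.0588). It overlaps Apex2. Summed over the list, levels were 115 to 151 CPM in Young, 282 to 499.5 CPM in Old_CP2 and 139 to 209 CPM in vehicle Old. Among 17 endothelial genes, measured in the same libraries, 1 rose and 1 fell, and their sum was 734 to 875 CPM in Old_CP2 and 752 to 771 CPM in vehicle Old. The 14 pericyte and smooth muscle genes summed to 191 to 233 CPM in Young, 205 to 296 CPM in Old_CP2 and 165 to 193 CPM in vehicle Old. Every treated library was thus above every vehicle one in that list, and its part in the red blood cell values was not tested.

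The promoters of the alpha globin genes are shown because the genes are near-identical copies and both rose. Over the best local alignment their longest coding transcripts matched at 537 of 538 bases, so reads can be split between the genes and each single value is uncertain. The windows run from 250 bases before to 50 bases after the RefSeq start on GRCm38.p6, both on the plus strand, at chr11:32283422-32283721 and chr11:32296242-32296541. Capitals mark the letters CCAAT, the box bound by general activators, at -88 and -91 from the start. CCAAT was searched on both strands, and 37.4% of 32817 windows of this length hold it.
Hba-a1: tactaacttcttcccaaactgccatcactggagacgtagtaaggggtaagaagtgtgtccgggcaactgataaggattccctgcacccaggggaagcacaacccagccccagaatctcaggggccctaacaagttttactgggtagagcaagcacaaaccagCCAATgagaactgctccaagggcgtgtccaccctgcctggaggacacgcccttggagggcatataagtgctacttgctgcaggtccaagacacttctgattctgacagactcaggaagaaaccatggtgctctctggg
Hba-a2: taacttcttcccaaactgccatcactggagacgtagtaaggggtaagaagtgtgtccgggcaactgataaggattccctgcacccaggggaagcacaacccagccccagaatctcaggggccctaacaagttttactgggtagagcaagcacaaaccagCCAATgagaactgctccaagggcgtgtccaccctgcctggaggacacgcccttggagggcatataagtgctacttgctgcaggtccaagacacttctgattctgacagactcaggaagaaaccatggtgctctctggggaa
Over 297 aligned bases the windows are identical.

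**Figure D2:**
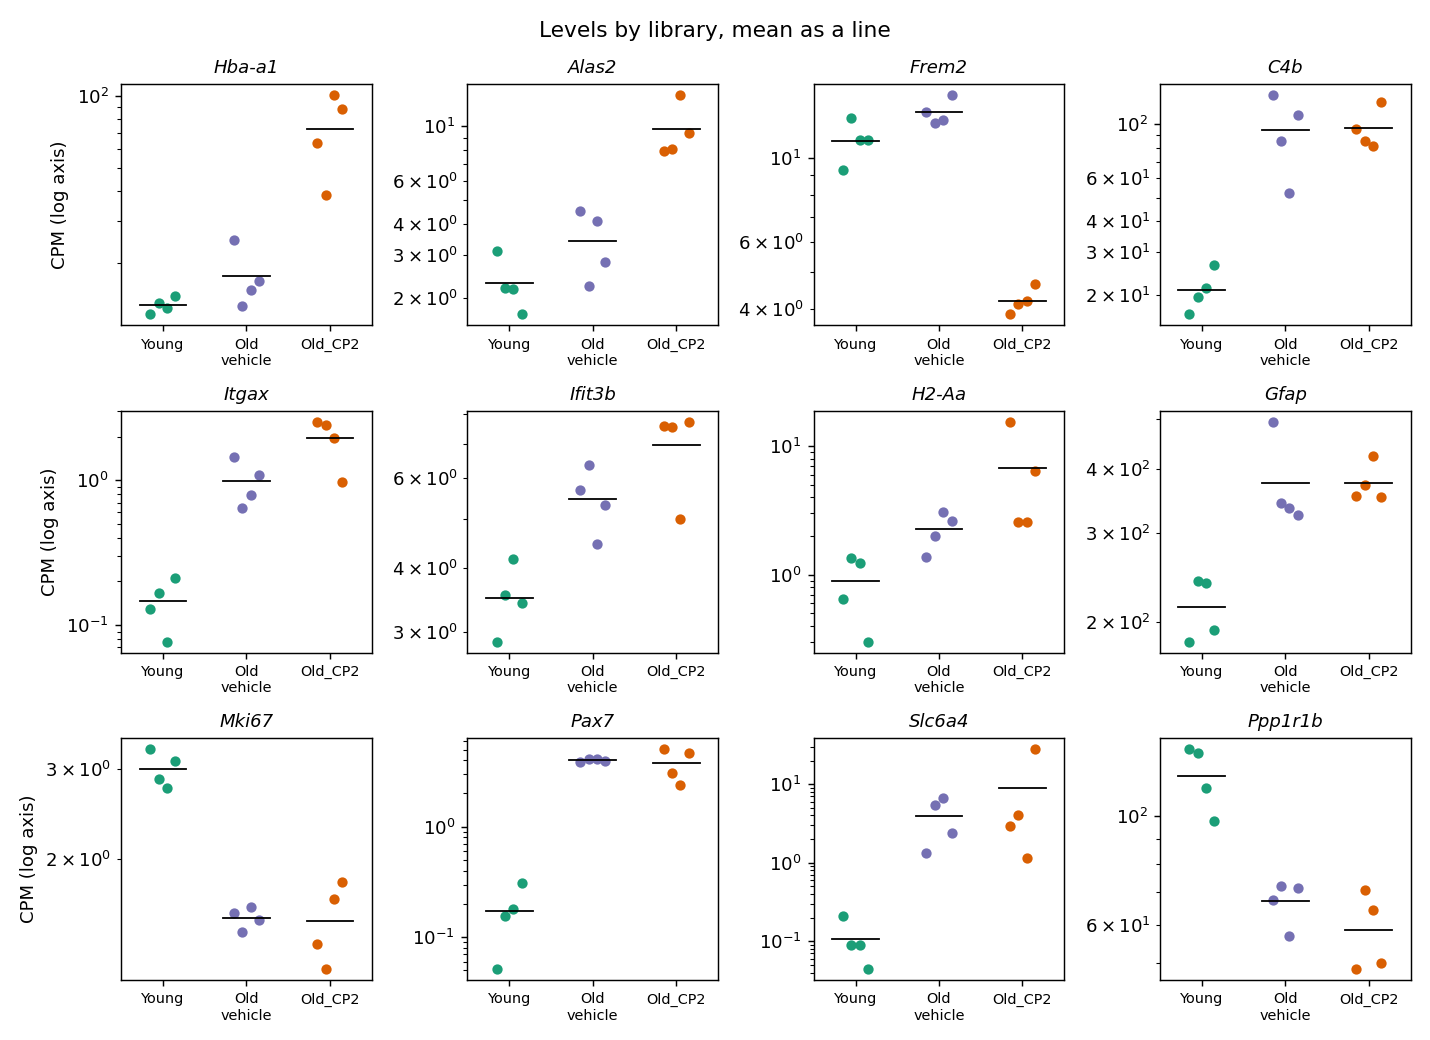
Each panel shows 1 gene, with CPM on a log axis and 1 point per library for Young, vehicle Old and Old_CP2 (4 each), and the line is the mean. In the panels of Hba-a1, Alas2 and Frem2 the treated libraries stand apart from both other groups, whereas in those of C4b, Gfap, Mki67, Pax7 and Ppp1r1b both old groups lie away from Young.

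Among genes of disease-associated microglia, a state of phagocytic, lipid-handling microglia, 16 of 23 rose and 0 fell, against 4.63% and 2.94% of all genes. The list median was 0.67. The count was 10 without Old_CP2 11 and 15 and 8 with the choroid plexus term, and 12 to 15 with 1 library left out. DESeq2 called 18 members higher and 1 lower. Itgax was at 0.129, 0.166, 0.0767 and 0.212 CPM in Young and 2.54, 2.4, 1.97 and 0.979 CPM in Old_CP2, against 1.45, 0.647, 0.794 and 1.08 CPM in vehicle Old. Every treated library was above every young one, as eligibility for naming required. Lyz2, a lysozyme, was at 4.65, 5.84, 8.78 and 5.81 CPM in Young and 29.1, 19.5, 22.8 and 20.9 CPM in Old_CP2 (log2 fold change 1.88 ± 0.244 SE, adjusted p = 0.00109). Cst7, an inhibitor of lysosomal proteases, was at 0.194, 0.111, 0.192 and 0.112 CPM in Young and 1.3, 1.17, 1.94 and 0.607 CPM in Old_CP2 (log2 fold change 3.05 ± 0.403 SE, adjusted p = 0.0012). The groups did not overlap in either gene. Csf1, a growth factor that sustains microglia, rose by 0.35 (adjusted p = 0.00109). The other 12 rises ranged from 0.19 for Axl to 2.63 for Clec7a, and the 7 genes not called included Apoe at 0.17 and Lpl at -0.63. Vehicle Old held Itgax at 0.993 ± 0.353 CPM, Lyz2 at 19.1 ± 6.85 CPM and Cst7 at 0.635 ± 0.25 CPM, and none of the 23 was called between the old groups, whose median difference was 0.0475.

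Of 17 genes of homeostatic microglia, the surveying state, 5 rose and 0 fell, against 4.63% and 2.94% of all genes. The list median was 0.20. Sall1, a factor of microglial identity, was at 20.1, 22.8, 22.9 and 21.8 CPM in Young and 25.3, 26.5, 27.6 and 27.1 CPM in Old_CP2 (log2 fold change 0.28 ± 0.054 SE, adjusted p = 0.00856). Olfml3 and P2ry6, a secreted matrix protein and a nucleotide receptor, rose by 0.54 and 0.59 (adjusted p = 0.0164 and 0.0234). The count was 2 without Old_CP2 11 and 3 without Young 4 or Old_CP2 12, and 2 without Old_CP2 11 and 15 and 1 with the choroid plexus term. P2ry12, the purine receptor of resting microglia, was at -0.20 and was not called (adjusted p = 0.217). The omission of 1 library ended the call for Olfml3 without Old_CP2 11 (adjusted p = 0.0561) and P2ry6 without Young 4 or 5 or Old_CP2 11 or 12 (adjusted p = 0.0543 to 0.0693). Other settings ended calls, namely without Old_CP2 11 and 15 for Olfml3 and P2ry6 (adjusted p = 0.0681 to 0.0708) and with the choroid plexus term for Sall1, Olfml3 and P2ry6 (adjusted p = 0.0699 to 0.159).

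Complement genes tag debris and synapses for uptake. Of 18, 7 rose and 0 fell (median 0.42), against 4.63% and 2.94% of all genes. C4b (ENSMUSG00000073418, chromosome 17, 34728380 to 34743882, mm10), the C4 component, was at 16.6, 19.5, 21.2 and 26.4 CPM in Young and 95.6, 85.2, 81.3 and 123 CPM in Old_CP2, against 132, 85.5, 52.3 and 109 CPM in vehicle Old (log2 fold change 2.20 ± 0.243 SE, adjusted p = 0.000472; against vehicle Old adjusted p = 0.993). All old libraries exceeded all young ones. C1qa, a chain of the initiating C1q complex, was at 23.4, 26.8, 27 and 31.7 CPM in Young and 61.4, 46.9, 42.5 and 40.5 CPM in Old_CP2 (log2 fold change 0.81 ± 0.119 SE, adjusted p = 0.00211), and Itgb2, a chain of complement receptor 3, rose by 0.79 (adjusted p = 0.00128). C3ar1, the C3a receptor, rose by 0.91 (adjusted p = 0.00947), while C3 itself was at -0.21 and not called. The count was 4 without Old_CP2 11 and 15 and 3 with the choroid plexus term. Of 20 cytokines, chemokines and related genes, 8 rose and 0 fell (median 0.56), against the same shares of all genes. Casp1, the inflammasome protease, was at 1.1, 1.55, 1.69 and 1.43 CPM in Young and 4.45, 3.75, 3.09 and 5.08 CPM in Old_CP2 (log2 fold change 1.5 ± 0.171 SE, adjusted p = 0.000503). Il33, an alarmin, was at 41.4, 47.8, 46.6 and 49.8 CPM in Young and 64.6, 73.3, 74.4 and 97 CPM in Old_CP2 (log2 fold change 0.74 ± 0.1 SE, adjusted p = 0.00131). Ccl4, a chemokine of activated microglia, rose by 3.29 from 0.0432 ± 0.0263 CPM (adjusted p = 0.00135). The groups did not overlap in Casp1, Il33 or Ccl4, and Il1b was at 0.63 and not called. The cytokine count was 5 without Old_CP2 11 and 15 and 5 with the choroid plexus term. Calls were lost with the choroid plexus term for C3ar1 (adjusted p = 0.0725).

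Genes of MHC class II present peptides to CD4 T cells. Against 4.63% and 2.94% of all genes, 6 of these 9 rose and 0 fell, with a median of 1.56. Their summed level was 15.4 to 20.9 CPM in Young and 97.4, 27.7, 28.4 and 51.3 CPM in Old_CP2 11, 12, 13 and 15, and 25.0 to 29.6 CPM in vehicle Old. The 2 treated libraries lowest in choroid plexus were thus the 2 highest here, and leaving them out changed the count of rises to 0, as did the choroid plexus term (0), and limma voom called 3. The median without them was 1.08. Against vehicle Old the median was 1.29, with 0 members called. H2-Aa, a class II alpha chain, was at 0.647, 1.35, 1.24 and 0.301 CPM in Young and 15.4, 2.55, 2.58 and 6.41 CPM in Old_CP2, against 1.37, 1.99, 3.05 and 2.6 CPM in vehicle Old (log2 fold change 2.93 ± 0.596 SE, adjusted p = 0.0112). Old_CP2 11 was the highest and all treated libraries exceeded all young ones. Cd74, the invariant chain, was at 1.84, 3.83, 4.74 and 1.62 CPM in Young and 42.6, 6.93, 6.93 and 17.6 CPM in Old_CP2 (log2 fold change 2.62 ± 0.553 SE, adjusted p = 0.0133). H2-Eb1, a class II beta chain, was at 0.893, 1.43, 0.958 and 0.669 CPM in Young and 11.4, 2.3, 2 and 6.42 CPM in Old_CP2 (log2 fold change 2.48 ± 0.492 SE, adjusted p = 0.00971), and H2-DMb1, which helps load peptides, rose by 1.32 (adjusted p = 0.00948). Ciita, the class II transactivator, was at 0.05 and not called. The calls ended without Old_CP2 11 and 15 for H2-Aa, Cd74, H2-Eb1 and H2-DMb1 (adjusted p = 0.0743 to 0.11), with the choroid plexus term for H2-Aa, Cd74, H2-Eb1 and H2-DMb1 (adjusted p = 0.125 to 0.274) and in limma voom for Cd74 and H2-Eb1 (adjusted p = 0.051 to 0.0554).

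MHC class I presents peptides from within the cell. Here 9 of 17 genes rose and 0 fell (median 0.82), against 4.63% and 2.94% of all genes. Tap2, a subunit of the peptide transporter, was at 7.75, 8.93, 8.85 and 8.6 CPM in Young and 13.2, 10.9, 12.3 and 13 CPM in Old_CP2 (log2 fold change 0.53 ± 0.0861 SE, adjusted p = 0.00339). Psmb8, a subunit of the immunoproteasome, was at 1.71, 2.3, 2.43 and 1.52 CPM in Young and 6.34, 3.43, 3.23 and 5.08 CPM in Old_CP2 (log2 fold change 1.18 ± 0.22 SE, adjusted p = 0.00703). Tapbp, a loading chaperone, rose by 0.31 and H2-Q6, a non-classical heavy chain, by 1.5 (adjusted p = 0.00842 and 0.00846). No overlap was seen between Young and Old_CP2 in these 4. H2-Q6 is one of several similar copies, so its single value is uncertain, and Tap2 and Psmb8 overlap the model Gm20496. The count was 1 without Old_CP2 11 and 15 and 1 with the choroid plexus term. A call was lost without Old_CP2 11 and 15 for Psmb8, Tapbp and H2-Q6 (adjusted p = 0.0599 to 0.0715) and with the choroid plexus term for Psmb8, Tapbp and H2-Q6 (adjusted p = 0.0578 to 0.178).

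Interferon-stimulated genes, which encode antiviral effectors, rose in 17 of 32 cases and fell in 0 (median 0.64), against 4.63% and 2.94% of all genes. Ifit3b was at 2.87, 3.55, 4.16 and 3.42 CPM in Young and 7.58, 7.56, 4.99 and 7.73 CPM in Old_CP2, against 5.69, 6.35, 4.45 and 5.32 CPM in vehicle Old (log2 fold change 0.99 ± 0.159 SE, adjusted p = 0.00336). Old_CP2 13 was the lowest treated library, still above the highest young one. Oas2, a synthetase that senses double-stranded RNA, was at 0.168, 0.31, 0.256 and 0.223 CPM in Young and 0.989, 0.957, 0.64 and 1.13 CPM in Old_CP2 (log2 fold change 1.94 ± 0.313 SE, adjusted p = 0.00337), and Oasl2, of the same family, at 1.37, 1.97, 2.94 and 1.94 CPM in Young and 6.52, 4.89, 3.74 and 4.97 CPM in Old_CP2 (log2 fold change 1.29 ± 0.213 SE, adjusted p = 0.00382). Ifi27l2a, an interferon-induced membrane protein, rose by 1.61 (adjusted p = 0.00336). Of the 15 not called, Isg15 was at 0.25 and Bst2 at 0.23. The count was 5 without Old_CP2 11 and 15 and 3 with the choroid plexus term, and 12 to 23 with 1 library left out. In other settings calls were lost with the choroid plexus term for Ifi27l2a and Oasl2 (adjusted p = 0.0534 to 0.0625).

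Promoter windows of Ifit3b and its neighbouring copy Ifit3 are shown because both hold the core letters of the interferon-stimulated response element, a motif known to be bound by STAT and IRF complexes. Ifit3 (1.11, adjusted p = 0.00496) was chosen for display after its values were seen. Their longest coding transcripts matched at 97.8% of 1700 aligned bases, so reads may be split between them. The windows come from RefSeq on GRCm38.p6, plus strand, at chr19:34583279-34583578 and chr19:34607707-34608006. Capitals mark matches to this core, GAAA, any 2 bases and GAAA again, searched on both strands and here found on the opposite one, so that they read TTTC, 2 bases and TTTC. In Ifit3 they begin at -156 and -122 from the start, and in Ifit3b at -188 and -154.
Ifit3: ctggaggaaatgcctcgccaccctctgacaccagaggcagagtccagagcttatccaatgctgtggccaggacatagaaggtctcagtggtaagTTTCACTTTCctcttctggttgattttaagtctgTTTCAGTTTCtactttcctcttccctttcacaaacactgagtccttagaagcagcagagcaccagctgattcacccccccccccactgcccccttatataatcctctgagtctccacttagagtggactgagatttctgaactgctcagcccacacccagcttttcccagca
Ifit3b: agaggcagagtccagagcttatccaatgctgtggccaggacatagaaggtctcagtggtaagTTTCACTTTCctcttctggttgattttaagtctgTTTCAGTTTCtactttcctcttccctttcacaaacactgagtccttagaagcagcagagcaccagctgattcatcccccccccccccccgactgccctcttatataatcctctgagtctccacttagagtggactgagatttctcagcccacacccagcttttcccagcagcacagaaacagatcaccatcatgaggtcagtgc
This core occurs in 3.43% of the 32817 RefSeq windows. It was present in 14 of the 22 tested members with a window (63.6%), in 6 of the 11 that rose and in 8 of the 11 that were not called. A match is a run of letters and not evidence of binding.

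Lymphocyte genes were at low levels. Of 13 T cell genes, 4 rose and 1, Cd4, fell (median 0.69), against 4.63% and 2.94% of all genes. Pdcd1, the checkpoint receptor PD-1, was at 0.0777, 0.0443, 0.0383 and 0.0669 CPM in Young and 0.364, 0.418, 0.455 and 0.397 CPM in Old_CP2 (log2 fold change 2.82 ± 0.353 SE, adjusted p = 0.000943). Cd8a, the coreceptor of cytotoxic T cells, was at 0.0129, 0.0221, 0.0255 and 0 CPM in Young and 0.448, 0.173, 0.347 and 0.124 CPM in Old_CP2 (log2 fold change 4.07 ± 0.633 SE, adjusted p = 0.00303). Itgal, a leukocyte integrin, rose by 1.35 (adjusted p = 0.00872). For all 3 the treated libraries were above the young ones. The T cell receptor constant genes Trac and Trbc2 were at 0.49 and -0.47 and were not called. Of 8 B cell and plasma cell genes, 3 rose and 0 fell, against the same shares of all genes. Igha, the IgA heavy chain, was at 0.104, 0.0111, 0.0511 and 0.0223 CPM in Young and 3.62, 0.876, 0.846 and 0.855 CPM in Old_CP2 (log2 fold change 5.06 ± 0.655 SE, adjusted p = 0.00109), with Old_CP2 11 far above the other 3 treated libraries. Jchain, which links IgA molecules, and Cd79a, of the B cell receptor, rose by 1.64 and 0.98 (adjusted p = 0.0442 and 0.0411). Among 8 neutrophil genes, S100a9, an alarmin, rose by 3.42 (adjusted p = 0.0485), and Ngp had 2 reads in all of Young and 87 in Old_CP2, a ratio of 39.8 (95% counting interval 10.7 to 333). The neutrophil genes summed to 1.45 to 1.92 CPM in Young, 2.57 to 5.64 CPM in Old_CP2 and 2.65 to 12.3 CPM in vehicle Old. Their median against vehicle Old was -0.757, with 0 called. The B cell count was 1 without Young 1 or 5 or Old_CP2 11 or 15, and 1 without Old_CP2 11 and 15 and 1 with the choroid plexus term. The neutrophil count was 0 without Young 1, 3 or 4 or Old_CP2 11 and 1 without Young 5 or Old_CP2 13 or 15, and 0 without Old_CP2 11 and 15 and 0 with the choroid plexus term. The count of T cell genes that rose was 2 without Old_CP2 11 and 15 and 2 with the choroid plexus term. Calls that ended when 1 library was omitted were those of Cd4 without Old_CP2 11 (adjusted p = 0.0525), Jchain without Young 1, 4 or 5 or Old_CP2 11 or 15 (adjusted p = 0.0738 to 0.144), Cd79a without Young 1, 3 or 5 or Old_CP2 11, 12, 13 or 15 (adjusted p = 0.0546 to 0.103), S100a9 without Young 1, 3, 4 or 5 or Old_CP2 11, 13 or 15 (adjusted p = 0.0525 to 0.146) and Ngp without Young 1, 3 or 4 or Old_CP2 11 (adjusted p = 0.0542 to 0.0607). Calls also ended without Old_CP2 11 and 15 for Itgal, Cd4, Jchain, Cd79a, S100a9 and Ngp (adjusted p = 0.0948 to 0.361), with the choroid plexus term for Itgal, Cd4, Jchain, Cd79a, S100a9 and Ngp (adjusted p = 0.128 to 0.315), in limma voom for Jchain and S100a9 (adjusted p = 0.0773 to 0.129), in the fit of 8 libraries for Jchain and Cd79a (adjusted p = 0.055 to 0.0668) and without the filter on low counts for Cd79a (adjusted p = 0.0637).

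Genes of reactive astrocytes rose in 12 of 30 cases and fell in 0 (median 0.55), against 4.63% and 2.94% of all genes. This list shares genes such as Psmb8, H2-T23, Gbp2, Cxcl10 and Serping1 with the MHC class I, interferon, cytokine and complement lists. Their counts are therefore not separate. Gfap (ENSMUSG00000020932, chromosome 11, 102887336 to 102900912, mm10), the intermediate filament of astrocytes, was at 183, 241, 239 and 193 CPM in Young and 354, 372, 423 and 353 CPM in Old_CP2, against 494, 343, 334 and 325 CPM in vehicle Old (log2 fold change 0.81 ± 0.133 SE, adjusted p = 0.00361; against vehicle Old adjusted p = 0.996). Every old library lay above every young one, and the gene overlaps the model Gm26668. Ggta1, a sugar transferase of the reactive state, was at 3.03, 3.51, 3.35 and 3.46 CPM in Young and 6.1, 6.16, 6.03 and 4.61 CPM in Old_CP2 (log2 fold change 0.78 ± 0.109 SE, adjusted p = 0.00158). Osmr, the oncostatin M receptor, and Aspg, an asparaginase, rose by 0.73 and 0.96 (adjusted p = 0.00352 and 0.0012). Serpina3n, a protease inhibitor, was at 16.6, 16.9, 29 and 20.3 CPM in Young and 45.2, 42.8, 45.1 and 25.4 CPM in Old_CP2 (log2 fold change 0.94 ± 0.249 SE, adjusted p = 0.038). Old_CP2 15 lay below Young 4 in that gene. Vim, another intermediate filament, was at 0.54 and not called. The count of rises was 6 without Young 1 or 5 or Old_CP2 11, and 4 without Old_CP2 11 and 15 and 3 with the choroid plexus term. Of 15 general astrocyte markers none was called in edgeR, with 3 at an unadjusted p under 0.05 (against 23.2% of all genes), 2 called by DESeq2 and 0 by limma voom. The edgeR count was 1 without Old_CP2 15. Their median was 0.09. Aldoc, a glycolytic enzyme of astrocytes, was at 710.2 ± 37.9 CPM in Young and 816 ± 39 in Old_CP2 (adjusted p = 0.0693), and Glul, glutamine synthetase, at 936 ± 138 CPM in Young and 1141 ± 127 in Old_CP2 (adjusted p = 0.112). The call did not hold on leaving out 1 library for Serpina3n without Young 1, 3 or 5 or Old_CP2 11, 12 or 13 (adjusted p = 0.0797 to 0.101). Further losses occurred without Old_CP2 11 and 15 for Serpina3n (adjusted p = 0.0623) and with the choroid plexus term for Osmr and Serpina3n (adjusted p = 0.0658 to 0.227).

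Genes of myelin were lower in 6 of 20 cases and higher in 0, with a median of -0.20, against 2.94% lower over all genes. Mal, a myelin proteolipid, was at 273, 244, 227 and 266 CPM in Young and 161, 183, 179 and 204 CPM in Old_CP2 (log2 fold change -0.48 ± 0.0741 SE, adjusted p = 0.00305). Cldn11, the tight junction protein of myelin, was at 190.2, 149, 140.5 and 162 CPM in Young and 93.3, 116, 111 and 115 CPM in Old_CP2 (log2 fold change -0.56 ± 0.0929 SE, adjusted p = 0.00387). Ugt8a and Fa2h, enzymes that make myelin galactolipids, fell by 0.45 and 0.52 (adjusted p = 0.00951 and 0.018). No treated library reached the young range in these 4 genes. Mbp, myelin basic protein, was at -0.13 and not called. The count was 3 without Old_CP2 11, and 2 without Old_CP2 11 and 15 and 1 with the choroid plexus term. Gpr17 fell in the list of oligodendrocyte precursors and newly formed oligodendrocytes, the only 1 of 14 called in edgeR with all libraries. The count was 2 without Young 1 and 3 without Old_CP2 15, 2 in limma voom or with RLE scaling and 3 in DESeq2. It is a receptor of cells on the way to myelination and was at 58.8, 60.1, 61.3 and 59 CPM in Young and 33.2, 31, 41.5 and 37.2 CPM in Old_CP2, against 34, 28.6, 40.2 and 44 CPM in vehicle Old (log2 fold change -0.74 ± 0.116 SE, adjusted p = 0.00306). Pdgfra, the receptor that marks precursors, was at -0.00395 and not called. With 1 library left out, the call was lost for Fa2h without Old_CP2 11 (adjusted p = 0.0565). Among the other fits, calls were lost without Old_CP2 11 and 15 for Ugt8a and Fa2h (adjusted p = 0.0754 to 0.0773) and with the choroid plexus term for Cldn11, Ugt8a and Fa2h (adjusted p = 0.0686 to 0.12).

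Cell division genes were lower in 7 of 20 cases and higher in 0 (median -0.60), against 2.94% and 4.63% of all genes. Mki67, the proliferation antigen, was at 3.29, 2.88, 2.76 and 3.11 CPM in Young and 1.36, 1.22, 1.67 and 1.81 CPM in Old_CP2, against 1.57, 1.44, 1.61 and 1.52 CPM in vehicle Old (log2 fold change -0.99 ± 0.131 SE, adjusted p = 0.0012). Ccnb1, the mitotic cyclin, was at 0.608, 0.609, 0.754 and 0.435 CPM in Young and 0.104, 0.122, 0.0651 and 0.186 CPM in Old_CP2 (log2 fold change -2.33 ± 0.357 SE, adjusted p = 0.00272), and Kif11, a spindle motor, at 2.36, 2.59, 2.38 and 2.28 CPM in Young and 0.999, 1.37, 0.813 and 1.41 CPM in Old_CP2 (log2 fold change -1.06 ± 0.162 SE, adjusted p = 0.00272). Cenpf, a kinetochore protein, fell by 1.29 (adjusted p = 0.00292). In all 4, old libraries of both groups lay below all young ones. The replication genes Pcna and Mcm2 were at -0.12 and -0.05 and were not called. The count was 6 to 7 with 1 library left out, and 6 without Old_CP2 11 and 15 and 5 with the choroid plexus term. Against the same shares of all genes, 4 of 15 genes of newborn neurons fell and 0 rose (median -0.17). Beside Igfbpl1, these were Sox4, a factor of neuronal differentiation (-0.46, adjusted p = 0.011), Draxin, a guidance cue (-0.98, adjusted p = 0.0354), and Marcksl1 (-0.24, adjusted p = 0.0487). Dcx, doublecortin, was at -0.17 and not called. The count was 2 without Young 4 or 5 or Old_CP2 11, 12 or 13, and 1 without Old_CP2 11 and 15 and 1 with the choroid plexus term. Leaving out 1 library ended the call of Draxin without Young 1, 4 or 5 or Old_CP2 11, 12 or 13 (adjusted p = 0.0526 to 0.102) and Marcksl1 without Young 3, 4 or 5 or Old_CP2 11, 12, 13 or 15 (adjusted p = 0.051 to 0.129). Other settings ended calls, namely without Old_CP2 11 and 15 for Sox4, Draxin and Marcksl1 (adjusted p = 0.0886 to 0.279), with the choroid plexus term for Sox4, Draxin and Marcksl1 (adjusted p = 0.12 to 0.312), in the fit of 8 libraries for Marcksl1 (adjusted p = 0.0554) and without the filter on low counts for Marcksl1 (adjusted p = 0.0798).

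Meningeal fibroblasts are cells of the brain's coverings. Of 15 of their genes 7 rose and 1 fell (median 0.84), against 4.63% and 2.94% of all genes. Dcn, decorin, was at 14.1, 25.2, 21.6 and 14.8 CPM in Young and 47.5, 38.1, 49.5 and 57.7 CPM in Old_CP2, against 66, 44.8, 39.7 and 40.7 CPM in vehicle Old (log2 fold change 1.35 ± 0.206 SE, adjusted p = 0.0027). Mgp, an inhibitor of calcification, rose by 1.40 and Ranbp3l by 0.88 (adjusted p = 0.0103 and 0.0201), while Igfbp2, an IGF-binding protein, fell by 0.82 (adjusted p = 0.00669). The list summed to 384 to 927 CPM in Young and 922 to 1228 CPM in Old_CP2. The count of rises was 2 without Young 1 or 5, 3 without Young 3 or Old_CP2 11 or 15 and 4 without Old_CP2 13, and 1 without Old_CP2 11 and 15 and 1 with the choroid plexus term. Against the same shares, 4 of 19 collagen and matrix genes rose and 0 fell. Fn1, fibronectin, led with 36.7, 42.3, 49.5 and 26.7 CPM in Young and 75.6, 66.2, 59.3 and 76.1 CPM in Old_CP2. Its log2 fold change was 0.84 ± 0.158 SE (adjusted p = 0.00765). Col6a2, Fbn1 and P4ha3, a collagen VI chain, a microfibril protein and a collagen hydroxylase, rose by 0.42, 0.26 and 0.42. The matrix count was 1 without Young 5 and 2 without Young 3 or Old_CP2 11, 12, 13 or 15, and 1 without Old_CP2 11 and 15 and 0 with the choroid plexus term. Matrix genes that fell numbered 2 without Young 5 and 3 in DESeq2. The omission of 1 library ended the call for Ranbp3l without Young 1 or 5 (adjusted p = 0.052 to 0.0575), Col6a2 without Young 4 or 5 or Old_CP2 12 or 13 (adjusted p = 0.0513 to 0.0543), Fbn1 without Young 3 or 5 or Old_CP2 11, 12 or 15 (adjusted p = 0.0515 to 0.0757) and P4ha3 without Young 1, 3 or 5 or Old_CP2 11, 13 or 15 (adjusted p = 0.0528 to 0.0918). Calls also ended without Old_CP2 11 and 15 for Mgp, Ranbp3l, Igfbp2, Fn1, Fbn1 and P4ha3 (adjusted p = 0.0778 to 0.172), with the choroid plexus term for Mgp, Ranbp3l, Igfbp2, Fn1, Col6a2, Fbn1 and P4ha3 (adjusted p = 0.051 to 0.199) and in the fit of 8 libraries for Fbn1 and P4ha3 (adjusted p = 0.058 to 0.0584).

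Among 17 endothelial genes 1 rose and 1 fell, shares near those over all genes. Vwf, the clotting factor of larger vessels, was at 9.28, 17.5, 14.3 and 9.64 CPM in Young and 25.2, 21.2, 22.5 and 29.3 CPM in Old_CP2 (log2 fold change 0.95 ± 0.208 SE, adjusted p = 0.016), and Slco1c1, a thyroid hormone transporter of the blood-brain barrier, fell by 0.43 (adjusted p = 0.0194). The general markers Pecam1 and Cldn5 were at 0.20 and -0.12. Of 14 pericyte and smooth muscle genes none was called in edgeR, with 6 at an unadjusted p under 0.05 (against 23.2% of all genes), 3 called by DESeq2 and 0 by limma voom. Kcnj8, a potassium channel of pericytes, was at 2.66 ± 0.441 CPM in Young and 3.53 ± 0.286 in Old_CP2 (adjusted p = 0.0685), and Cnn1, calponin of smooth muscle, was at 0.348 ± 0.152 CPM in Young and 0.759 ± 0.29 in Old_CP2 (adjusted p = 0.0896). Calls that ended when 1 library was omitted were those of Slco1c1 without Young 4 or 5 or Old_CP2 11 (adjusted p = 0.0552 to 0.0629). Further losses occurred without Old_CP2 11 and 15 for Vwf and Slco1c1 (adjusted p = 0.112 to 0.127) and with the choroid plexus term for Vwf and Slco1c1 (adjusted p = 0.202 to 0.227).

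**Figure D3:**
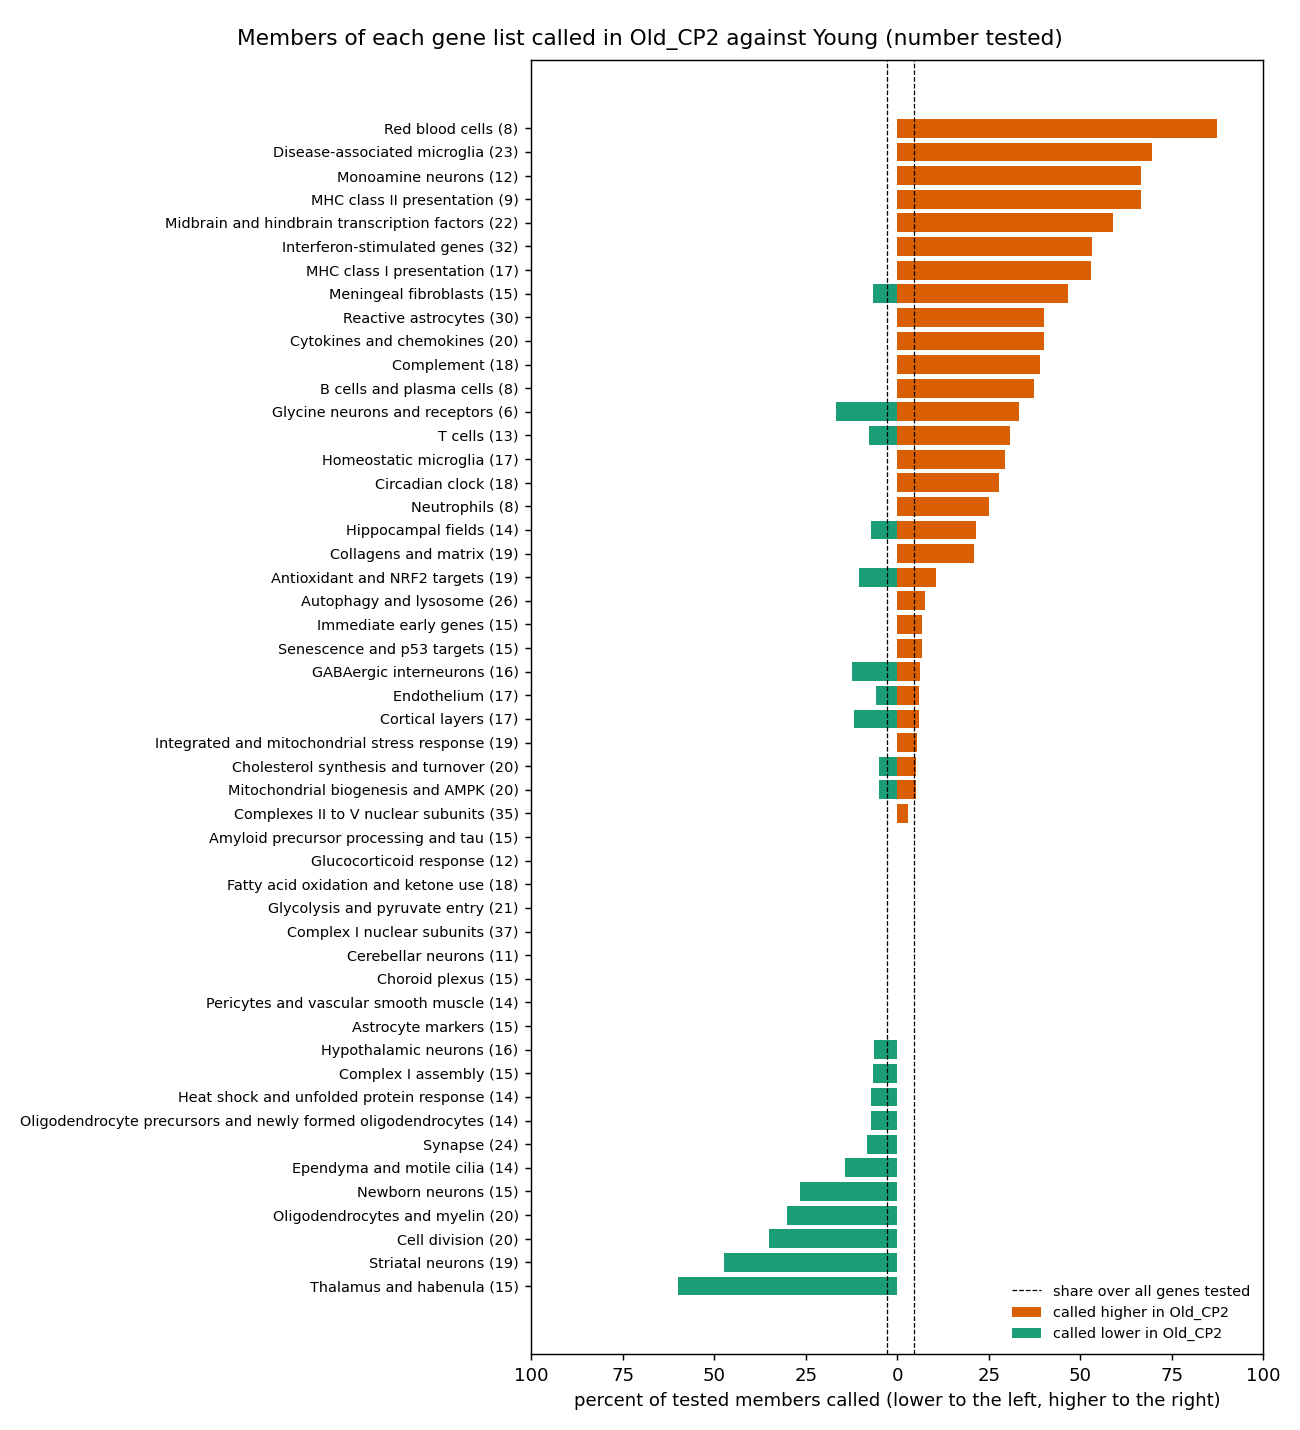
Bars give the percent of each list's tested members (their number in brackets) called higher (orange, right) or lower (green, left) in Old_CP2 than in Young, and the dashed lines are the shares over all genes tested, 4.63% and 2.94%. Red blood cell, disease-associated microglia, MHC class II, interferon and midbrain or monoamine lists reach furthest to the right, and thalamic, striatal, cell division and myelin lists furthest to the left.

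Of 22 transcription factors that mark neurons of the midbrain and hindbrain, 13 rose and 0 fell. Over all genes 4.63% rose and 2.94% fell, and the list median was 1.76. Pou4f2 (ENSMUSG00000031688, chromosome 8, 78433010 to 78436645, mm10), which encodes a homeodomain protein of the POU class found in retina and dorsal midbrain, had 1 read in all of Young, 699 in Old_CP2 and 605 in vehicle Old. The ratio of treated to young reads was 639 (95% counting interval 114 to 25300, adjusted p = 1.03e-05). Old_CP2 11 was the highest treated library. Their summed level was 18 to 26.4 CPM in Young, 47.5 to 73.4 CPM in Old_CP2 and 52.6 to 82.7 CPM in vehicle Old, without overlap between young and old. The count was 11 to 13 with 1 library left out, and 9 without Old_CP2 11 and 15 and 8 with the choroid plexus term. The hindbrain and noradrenergic factor Phox2a was at 0.57 and Lmx1b at 0.41, neither of them called.

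Monoamine neurons make serotonin, dopamine and noradrenaline in the brain stem. Of 12 of their genes 8 rose and 0 fell (median 1.91), against 4.63% and 2.94% of all genes. Slc6a4, the serotonin transporter, was at 0.207, 0.0885, 0.0894 and 0.0446 CPM in Young and 2.98, 4.02, 1.14 and 28.1 CPM in Old_CP2, against 1.35, 5.38, 6.6 and 2.42 CPM in vehicle Old (log2 fold change 6.41 ± 1.11 SE, adjusted p = 0.00493). Tph2, the enzyme of neuronal serotonin synthesis, was at 0.608, 0.575, 0.613 and 0.647 CPM in Young and 5.11, 5.52, 2.18 and 49.6 CPM in Old_CP2, against 3.07, 7.59, 10.2 and 4.1 CPM in vehicle Old (log2 fold change 4.67 ± 0.902 SE, adjusted p = 0.00876). Old_CP2 15 was several-fold above the other libraries in both genes. Th, which makes the precursor of dopamine, was at 3.53, 11.3, 3.73 and 5.51 CPM in Young and 11.3, 23.8, 17.4 and 33.7 CPM in Old_CP2 (log2 fold change 1.83 ± 0.365 SE, adjusted p = 0.00992). Young 3 came close to Old_CP2 11, and the groups did not overlap. Slc18a2, the vesicular monoamine transporter, rose by 1.39 (adjusted p = 0.0283), although Young 3 lay above Old_CP2 11. The count was 3 without Young 1, 4 or 5, 4 without Old_CP2 15 and 5 without Old_CP2 12, and 3 without Old_CP2 11 and 15 and 0 with the choroid plexus term. In the 6 glycine genes, Slc6a5, the neuronal glycine transporter, was at 0.22, 0.343, 0.23 and 0.29 CPM in Young and 4.39, 3.08, 0.954 and 14.8 CPM in Old_CP2, against 33.2, 1.34, 3.36 and 2.58 CPM in vehicle Old (log2 fold change 4.40 ± 1.14 SE, adjusted p = 0.0345). Its highest value was in Old 7 and its highest treated value in Old_CP2 15. Glra1, the adult receptor subunit, rose by 0.79, and Glra2, the fetal one, fell by 0.32 (adjusted p = 0.0484 and 0.0226). The call did not hold on leaving out 1 library for Slc18a2 without Young 1, 4 or 5 or Old_CP2 12 or 15 (adjusted p = 0.052 to 0.0787), Slc6a5 without Young 1, 3, 4 or 5 or Old_CP2 11 or 15 (adjusted p = 0.0645 to 0.0885), Glra1 without Young 1, 3, 4 or 5 or Old_CP2 11, 12 or 15 (adjusted p = 0.0584 to 0.123) and Glra2 without Young 3 or 4 or Old_CP2 11, 12 or 13 (adjusted p = 0.059 to 0.0697). Among the other fits, calls were lost without Old_CP2 11 and 15 for Slc18a2, Slc6a5, Glra1 and Glra2 (adjusted p = 0.059 to 0.326), with the choroid plexus term for Slc6a4, Tph2, Th, Slc18a2, Slc6a5, Glra1 and Glra2 (adjusted p = 0.0649 to 0.475), in limma voom for Slc6a4, Tph2, Slc6a5 and Glra1 (adjusted p = 0.0694 to 0.256) and in the fit of 8 libraries for Slc18a2 (adjusted p = 0.055).

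Striatum and thalamus lie outside the labelled hippocampus and cortex. Of 19 striatal genes 9 fell and 0 rose (median -0.79), against 2.94% and 4.63% of all genes. Ppp1r1b, the dopamine-regulated phosphatase inhibitor DARPP-32, was at 137, 135, 115 and 98 CPM in Young and 48.7, 70.5, 64.3 and 50.1 CPM in Old_CP2, against 67.6, 72, 56.9 and 71.5 CPM in vehicle Old (log2 fold change -1.05 ± 0.133 SE, adjusted p = 0.000997). Penk, the enkephalin precursor, was at 101, 113, 77.6 and 60.1 CPM in Young and 32.8, 46.6, 43.1 and 36.2 CPM in Old_CP2 (log2 fold change -1.15 ± 0.183 SE, adjusted p = 0.00323), and Pde10a, a phosphodiesterase, was at 144, 143, 105 and 86.3 CPM in Young and 68.4, 75.9, 71 and 61.8 CPM in Old_CP2 (log2 fold change -0.79 ± 0.137 SE, adjusted p = 0.00493). All treated libraries were below all young ones in these 3, and Young 5 was the lowest young library. Adora2a was separated too, as its eligibility for naming required. Ppp1r1b and Penk overlap the models 1700003D09Rik and A830012C17Rik. The dopamine receptor gene Drd2 was at -0.26 and not called. The count was 4 without Old_CP2 11 and 5 without Young 1, and 1 without Old_CP2 11 and 15 and 1 with the choroid plexus term. In other settings calls were lost without Old_CP2 11 and 15 for Penk and Pde10a (adjusted p = 0.0531 to 0.0686) and with the choroid plexus term for Penk and Pde10a (adjusted p = 0.0625 to 0.0752).

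Of 15 genes of thalamus and habenula 9 fell and 0 rose (median -1.12), against 2.94% and 4.63% of all genes. Lef1, a Wnt-responsive factor of thalamic neurons, was at 27.5, 16.7, 19.3 and 19.5 CPM in Young and 10.1, 11.4, 12.6 and 10.2 CPM in Old_CP2 (log2 fold change -0.90 ± 0.182 SE, adjusted p = 0.0108). Tnnt1, a troponin expressed in thalamus, was at 29.3, 11.8, 15 and 19 CPM in Young and 5.3, 9.8, 10.4 and 9.1 CPM in Old_CP2 (log2 fold change -1.12 ± 0.258 SE, adjusted p = 0.0212). Amotl1 and Plekhg1 fell by 0.82 and 1.29 (adjusted p = 0.0244 and 0.0258). Young 1 was the highest library in all 4. Summed levels were 731 to 1179 CPM in Young, 333 to 630.0 CPM in Old_CP2 and 364 to 654 CPM in vehicle Old. Old_CP2 11 was the lowest treated library in the striatal and thalamic sums (559.5 and 333 CPM) and also in the monoamine sum (123 CPM, below Young 3 at 139.7), whereas Old_CP2 15 was the highest in monoamine genes at 412 CPM. The part of these regions in the other results was not tested. The count was 1 without Young 1 or Old_CP2 11, 2 without Old_CP2 15, 3 without Old_CP2 12, 4 without Young 4 and 5 without Young 5, and 0 without Old_CP2 11 and 15 and 0 with the choroid plexus term. With 1 library left out, the call was lost for Tnnt1 without Young 1 or Old_CP2 11 (adjusted p = 0.0525 to 0.0561), Amotl1 without Young 1 or Old_CP2 11, 12 or 15 (adjusted p = 0.0511 to 0.0688) and Plekhg1 without Young 1 or Old_CP2 11 or 15 (adjusted p = 0.0577 to 0.0722). Calls also ended without Old_CP2 11 and 15 for Lef1, Tnnt1, Amotl1 and Plekhg1 (adjusted p = 0.114 to 0.17) and with the choroid plexus term for Lef1, Tnnt1, Amotl1 and Plekhg1 (adjusted p = 0.157 to 0.244).

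Of 16 hypothalamic genes 1 fell, against 2.94% of all genes, and 0 rose (median -1.42). The hypothalamic count was 0 without Young 3 or 4 or Old_CP2 11, 12 or 15, 3 without Young 5 and 7 without Old_CP2 13, and 0 without Old_CP2 11 and 15 and 0 with the choroid plexus term, while DESeq2 and limma voom each called 3. The 1 that fell with all libraries was Avp, vasopressin, at 1.89, 38.9, 37.5 and 0.234 CPM in Young and 0.406, 0.377, 2.88 and 0.198 CPM in Old_CP2 (log2 fold change -4.34 ± 1.22 SE, adjusted p = 0.0471), where Young 3 and 4 were high and Young 1 and 5 lay within the treated range. The choroid plexus gene Ttr, which encodes the thyroid hormone carrier transthyretin, was at 1071, 1151, 1763 and 1648 CPM in Young and 5.08, 738, 686 and 40.6 CPM in Old_CP2, against 129.7, 861, 6.81 and 688 CPM in vehicle Old (log2 fold change -1.94 ± 1.24 SE, adjusted p = 0.381). Treated libraries 11 and 15 were far below 12 and 13, and the gene was not called. Kcnj13 and Otx2, a potassium channel and a homeobox factor of the same epithelium, were at -1.48 and -0.52. Of 14 genes of ependyma, the ciliated lining of the ventricles, Tmem212 and Rsph1, a protein of ciliary spokes, fell. Rsph1 was at 4.98, 7.22, 7.5 and 6.84 CPM in Young and 1.76, 3.2, 3.93 and 2.42 CPM in Old_CP2 (log2 fold change -1.23 ± 0.281 SE, adjusted p = 0.02). The ependymal count was 0 without Old_CP2 11, 1 without Young 4 or Old_CP2 12, 5 without Young 1 and 6 without Old_CP2 13, and 0 without Old_CP2 11 and 15 and 0 with the choroid plexus term, while DESeq2 called 8 and limma voom 5. Foxj1, the factor that drives motile cilia, was at -0.72 and not called. None of 11 cerebellar genes was called with all libraries in edgeR, DESeq2 or limma voom, with 3 at an unadjusted p under 0.05 (against 23.2% of all genes). Zic1 and Zic2, factors of granule cells that meninges and thalamus also express, were at -1.21 and -0.63. Both were called lower in the edgeR fit of 8 libraries (adjusted p = 0.0341 and 0.0431). Leaving out 1 library ended the call of Avp without Young 3 or 4 or Old_CP2 11, 12 or 15 (adjusted p = 0.0922 to 0.127), Rsph1 without Young 4 or Old_CP2 11 (adjusted p = 0.0517 to 0.0585) and Tmem212 without Old_CP2 11 or 12 (adjusted p = 0.051 to 0.0561). Further losses occurred without Old_CP2 11 and 15 for Avp, Rsph1 and Tmem212 (adjusted p = 0.129 to 0.246), with the choroid plexus term for Avp, Rsph1 and Tmem212 (adjusted p = 0.149 to 0.324), in limma voom for Avp (adjusted p = 0.417) and in the fit of 8 libraries for Avp (adjusted p = 0.079).

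**Figure D4:**
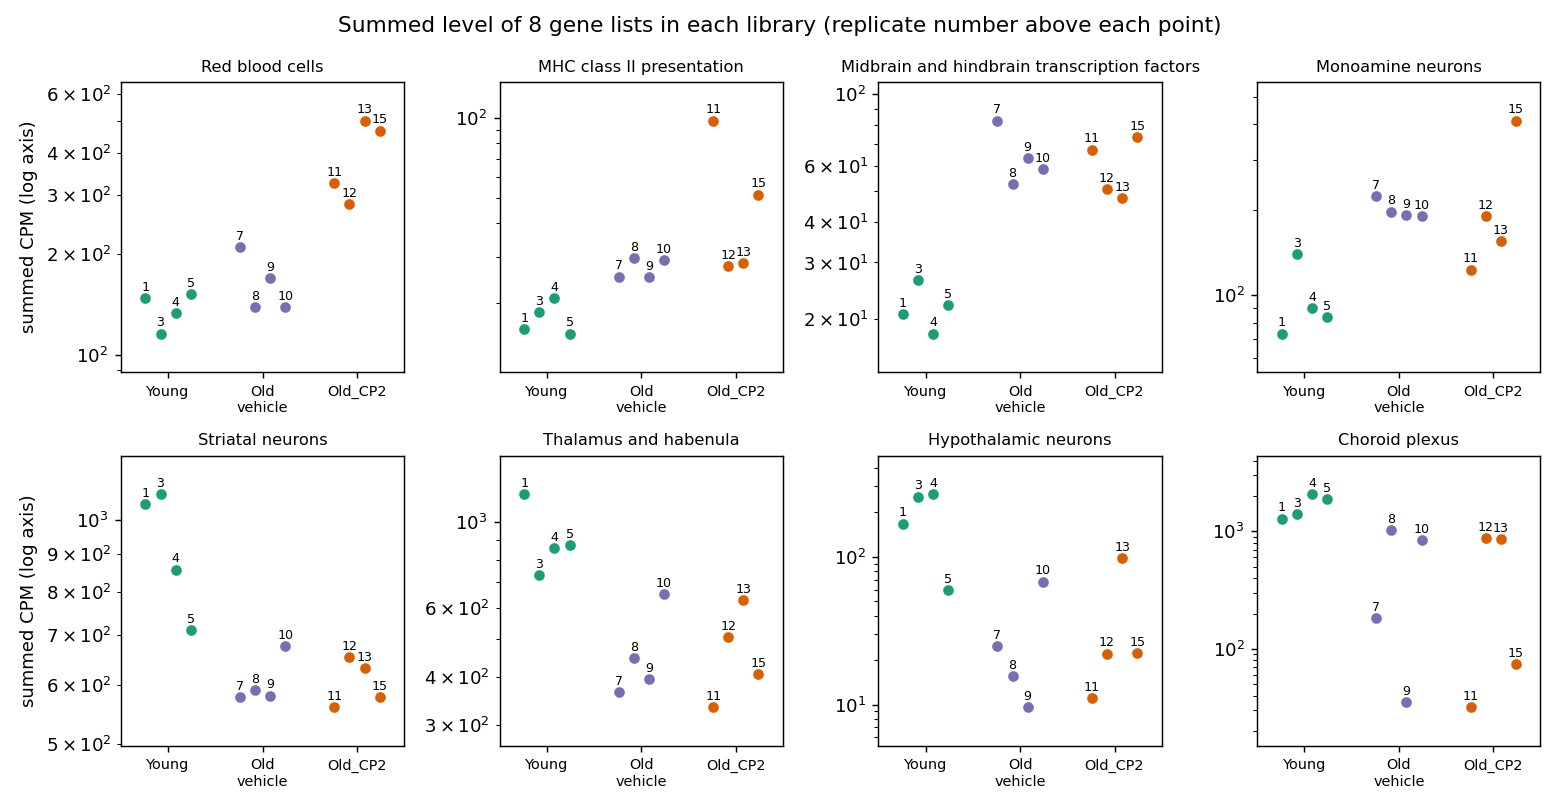
Each panel shows the summed CPM of 1 gene list on a log axis, with 1 numbered point per library for Young, vehicle Old and Old_CP2. Old_CP2 11 and 15 are the lowest treated libraries in choroid plexus at 31.8 and 74.7 CPM and the highest of all in MHC class II at 97.4 and 51.3 CPM, Old_CP2 15 is highest in monoamine genes, and red blood cell genes are higher in all 4 treated libraries than in the 8 others.

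Markers of hippocampal fields moved in both directions, with 3 rising and 1 falling among 14, against 4.63% and 2.94% of all genes. C1ql2, a synaptic organiser of dentate granule cells, was at 15.6, 13.3, 13.8 and 14.1 CPM in Young and 32.4, 28, 24.7 and 25.4 CPM in Old_CP2 (log2 fold change 0.96 ± 0.13 SE, adjusted p = 0.00128). Trpc6, a cation channel of the dentate gyrus, was at 6.34, 6.67, 6.87 and 8.3 CPM in Young and 10.9, 10.7, 9.98 and 11.3 CPM in Old_CP2 (log2 fold change 0.61 ± 0.0931 SE, adjusted p = 0.00278). Fibcd1, a marker of CA1, rose by 0.52, and Iyd, a deiodinase, fell by 1.48 (adjusted p = 0.0264 and 0.0182). Among 17 cortical genes, Fezf2, the selector of subcerebral projection neurons, was at 17, 15.9, 14.2 and 17.8 CPM in Young and 31, 29.2, 25.3 and 20.6 CPM in Old_CP2 (log2 fold change 0.71 ± 0.111 SE, adjusted p = 0.00315). Foxp2, of deep layers, fell by 0.43 and Cux1, of upper layers, by 0.19 (adjusted p = 0.0159 and 0.0442). Tbr1, of deep layers, was at -0.01 and not called. The hippocampal count was 2 without Old_CP2 11 and 15 and 2 with the choroid plexus term for rises, and for falls it was 0 without Old_CP2 11 and 2 without Old_CP2 12, and 0 without Old_CP2 11 and 15 and 0 with the choroid plexus term. The cortical count of falls was 1 without Young 3, 4 or 5 or Old_CP2 11, 12, 13 or 15, and 0 without Old_CP2 11 and 15 and 0 with the choroid plexus term. The omission of 1 library ended the call for Iyd without Old_CP2 11 (adjusted p = 0.0569), Fibcd1 without Young 1 or Old_CP2 11 or 12 (adjusted p = 0.0557 to 0.074) and Cux1 without Young 3, 4 or 5 or Old_CP2 11, 12, 13 or 15 (adjusted p = 0.0501 to 0.131). Among the other fits, calls were lost without Old_CP2 11 and 15 for Iyd, Fibcd1, Foxp2 and Cux1 (adjusted p = 0.131 to 0.218), with the choroid plexus term for Iyd, Fibcd1, Foxp2 and Cux1 (adjusted p = 0.154 to 0.238), in the fit of 8 libraries for Fibcd1 and Cux1 (adjusted p = 0.0528 to 0.0676) and without the filter on low counts for Cux1 (adjusted p = 0.0842).

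In GABAergic interneurons 1 of 16 genes rose and 2 fell, against 4.63% and 2.94% of all genes. Npy, neuropeptide Y, was at 35.1, 34.1, 38.1 and 34.9 CPM in Young and 25.1, 25.3, 24.2 and 20.4 CPM in Old_CP2 (log2 fold change -0.58 ± 0.113 SE, adjusted p = 0.00892), and Adarb2, a marker of interneurons from the caudal eminence, was at 54, 46.5, 52.8 and 53.2 CPM in Young and 28.5, 32.6, 33.8 and 38.3 CPM in Old_CP2 (log2 fold change -0.63 ± 0.117 SE, adjusted p = 0.00679). Gad1, the GABA-making enzyme, rose by 0.25 (adjusted p = 0.023), and Sst and Pvalb were at -0.09 and 0.34. Of 24 synaptic genes 2 fell and 0 rose (median -0.08). Shank3, a postsynaptic scaffold, was at 427, 305, 354 and 318 CPM in Young and 204, 253, 261 and 218 CPM in Old_CP2 (log2 fold change -0.59 ± 0.115 SE, adjusted p = 0.00945), and Rims1, which primes vesicles, was at 214, 225, 241 and 225 CPM in Young and 189, 197, 189 and 185 CPM in Old_CP2 (log2 fold change -0.25 ± 0.0496 SE, adjusted p = 0.00924). The groups did not overlap in either. The interneuron count of rises was 0 without Young 5 or Old_CP2 11 or 12 and 3 without Young 3, and 0 without Old_CP2 11 and 15 and 0 with the choroid plexus term, and that of falls was 1 without Old_CP2 11 and 15 and 0 with the choroid plexus term. The synaptic count was 0 without Old_CP2 11 and 15 and 0 with the choroid plexus term. Calls that ended when 1 library was omitted were those of Gad1 without Young 4 or 5 or Old_CP2 11 or 12 (adjusted p = 0.0549 to 0.0679). Other settings ended calls, namely without Old_CP2 11 and 15 for Npy, Gad1, Shank3 and Rims1 (adjusted p = 0.0766 to 0.11) and with the choroid plexus term for Npy, Adarb2, Gad1, Shank3 and Rims1 (adjusted p = 0.0801 to 0.209).

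Complex I is the stated target of CP2. None of its 37 nuclear subunits was called in edgeR, DESeq2 or limma voom, 7 had an unadjusted p under 0.05 (against 23.2% of all genes), and the median was -0.12. The subunit with the smallest p, Ndufc2, was at 67.1, 66, 72.4 and 80.3 CPM in Young and 59.1, 56.5, 59.2 and 65.8 CPM in Old_CP2, against 68.5, 77, 58.7 and 58.8 CPM in vehicle Old (log2 fold change -0.25 ± 0.0898 SE, adjusted p = 0.115). Ndufa13, the next, was at 104 ± 10.4 CPM in Young and 87.4 ± 11.5 in Old_CP2 (adjusted p = 0.13). Without Old_CP2 15 it was the only subunit called in edgeR (-0.33, adjusted p = 0.0313). Against 2.94% of all genes, 1 of 15 assembly factors fell. This was Timmdc1, at 16.7, 16.4, 17.3 and 15.5 CPM in Young and 13.8, 13.4, 14.3 and 14 CPM in Old_CP2 (log2 fold change -0.25 ± 0.0556 SE, adjusted p = 0.0186). The median over the factors was -0.04. Of 35 nuclear subunits of complexes II to V, DESeq2 called 2 higher and 1 lower, and limma voom 1 higher. Without Old_CP2 15, edgeR called 1 lower. In edgeR with all libraries Sdha, the flavoprotein of complex II, was the only call, against 4.63% of all genes called higher. It was at 325, 338, 333 and 336 CPM in Young and 381, 384, 373 and 369 CPM in Old_CP2, against 383, 385, 376 and 392 CPM in vehicle Old (log2 fold change 0.18 ± 0.0374 SE, adjusted p = 0.0128), with the treated libraries above the young ones. All 13 protein-coding genes encoded by mitochondrial DNA had a count of 0 in each library and are not analysed here. The call did not hold on leaving out 1 library for Timmdc1 without Young 4 or Old_CP2 11 or 12 (adjusted p = 0.0585 to 0.0668). Calls also ended without Old_CP2 11 and 15 for Timmdc1 and Sdha (adjusted p = 0.0605 to 0.124) and with the choroid plexus term for Timmdc1 and Sdha (adjusted p = 0.0712 to 0.0961).

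Of 20 genes of mitochondrial biogenesis and AMPK signalling 1 rose and 1 fell, near the 4.63% and 2.94% of all genes. Ppargc1a, the coactivator PGC-1alpha, was at 56, 53.9, 49.3 and 52.4 CPM in Young and 67.2, 61.5, 59.9 and 58.5 CPM in Old_CP2, against 59.7, 61.9, 59.7 and 59.8 CPM in vehicle Old (log2 fold change 0.22 ± 0.0519 SE, adjusted p = 0.0216). Camkk2, a kinase upstream of AMPK, was at 185, 192, 219 and 190.0 CPM in Young and 136, 157, 158 and 121 CPM in Old_CP2, against 115, 148, 146 and 140.0 CPM in vehicle Old (log2 fold change -0.46 ± 0.0957 SE, adjusted p = 0.0129). Neither gene showed overlap between Young and Old_CP2. The AMPK catalytic subunit genes Prkaa1 and Prkaa2 were at 0.12 and 0.03 and Tfam, which packages mitochondrial DNA, was at 0.03, with no call. None of 21 genes of glycolysis and pyruvate entry was called in edgeR, with 6 at an unadjusted p under 0.05 (against 23.2% of all genes) and 3 called by DESeq2. The edgeR count was 1 without Young 5 or Old_CP2 13 or 15, and 1 without Old_CP2 11 and 15 and 0 with the choroid plexus term. None of 18 genes of fatty acid oxidation and ketone use was called, with 3 at an unadjusted p under 0.05 (against 23.2%) and 1 called by DESeq2. Pfkfb3, a regulator of glycolysis, was at 34 ± 2.84 CPM in Young and 40.1 ± 4.06 in Old_CP2 (adjusted p = 0.0763) and Acadl, an acyl-CoA dehydrogenase, at 27.1 ± 2.09 CPM in Young and 31.4 ± 1.1 in Old_CP2 (adjusted p = 0.0894). Ppara, the nuclear receptor that drives fat burning, was at 2.58 ± 0.414 CPM in Young and 3.11 ± 0.168 in Old_CP2 (adjusted p = 0.209). Limma voom called none in either list. Of 20 cholesterol genes Dhcr7, the last enzyme of synthesis, fell by 0.29 and Abca1, the exporter, rose by 0.25 (adjusted p = 0.0201 and 0.0442). These counts are again near the shares over all genes. With 1 library left out, the call was lost for Ppargc1a without Young 4 or Old_CP2 11 (adjusted p = 0.0532 to 0.0654), Dhcr7 without Young 1 or 3 or Old_CP2 11 (adjusted p = 0.0503 to 0.0596) and Abca1 without Young 1 or 5 or Old_CP2 11, 12 or 15 (adjusted p = 0.0568 to 0.113). Further losses occurred without Old_CP2 11 and 15 for Ppargc1a, Camkk2, Dhcr7 and Abca1 (adjusted p = 0.0817 to 0.169), with the choroid plexus term for Ppargc1a, Camkk2, Dhcr7 and Abca1 (adjusted p = 0.163 to 0.212) and in the fit of 8 libraries for Abca1 (adjusted p = 0.0623).

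Among 19 antioxidant genes 2 rose and 2 fell, against 4.63% and 2.94% of all genes. Nfe2l2, the factor NRF2, was at 11.6, 13.7, 13.8 and 12.9 CPM in Young and 17.4, 18.6, 16.4 and 17.4 CPM in Old_CP2 (log2 fold change 0.42 ± 0.0799 SE, adjusted p = 0.00756), and Gstm1, a glutathione transferase, rose by 0.34 (adjusted p = 0.0139). Gpx1, a glutathione peroxidase, was at 55.3, 49.9, 54.9 and 55.2 CPM in Young and 43.8, 40, 39.5 and 49.1 CPM in Old_CP2 (log2 fold change -0.32 ± 0.0688 SE, adjusted p = 0.015), and Txn1, thioredoxin, fell by 0.21 (adjusted p = 0.0443). The NRF2 targets Nqo1 and Hmox1 were at 0.16 and 0.30 and were not called. The antioxidant count was 0 without Old_CP2 11 and 15 and 1 with the choroid plexus term for rises, and for falls it was 0 without Old_CP2 12 and 1 without Young 1, 4 or 5 or Old_CP2 11 or 13, and 1 without Old_CP2 11 and 15 and 1 with the choroid plexus term. Pck2, a mitochondrial enzyme, was the only 1 of 19 genes of the integrated and mitochondrial stress response to be called (0.28, adjusted p = 0.0236), and Hsph1, a chaperone, the only 1 of 14 heat shock genes (-0.24, adjusted p = 0.0299). Over all genes tested 7.57% were called either way, so 1 call in a list of this size is near the background. The heat shock count of rises was 1 without Young 4 and 2 without Old_CP2 15. Of 26 genes of autophagy and lysosome 2 rose and 0 fell, near the background shares, and the count of rises was 1 without Young 1, 3, 4 or 5 or Old_CP2 11, 12 or 15, and 1 without Old_CP2 11 and 15 and 0 with the choroid plexus term. Ctss, a cathepsin of microglia, was at 38.1, 48.6, 48.7 and 55.2 CPM in Young and 101, 68.7, 67.5 and 72.4 CPM in Old_CP2 (log2 fold change 0.70 ± 0.127 SE, adjusted p = 0.00605), and Gusb, a glucuronidase, rose by 0.23 (adjusted p = 0.0409). Cdkn2a, the locus of the cell cycle inhibitor p16, was the only 1 of 15 senescence genes called, at 0, 0.0443, 0 and 0.0669 CPM in Young and 0.354, 0.234, 0.184 and 0.421 CPM in Old_CP2 (log2 fold change 3.28 ± 0.658 SE, adjusted p = 0.0104). Cdkn1a, which encodes p21, was at -0.39 and not called. The senescence count of 1 is likewise near the share over all genes. Leaving out 1 library ended the call of Gpx1 without Old_CP2 12 (adjusted p = 0.0515), Txn1 without Young 1, 4 or 5 or Old_CP2 11, 12 or 13 (adjusted p = 0.0951 to 0.124), Pck2 without Young 4 (adjusted p = 0.0563), Hsph1 without Young 3, 4 or 5 or Old_CP2 11, 12 or 15 (adjusted p = 0.0517 to 0.0776) and Gusb without Young 1, 3, 4 or 5 or Old_CP2 11, 12, 13 or 15 (adjusted p = 0.0531 to 0.108). Among the other fits, calls were lost without Old_CP2 11 and 15 for Nfe2l2, Gstm1, Txn1, Pck2, Hsph1, Gusb and Cdkn2a (adjusted p = 0.0575 to 0.21), with the choroid plexus term for Gstm1, Txn1, Pck2, Hsph1, Ctss, Gusb and Cdkn2a (adjusted p = 0.106 to 0.259), in the fit of 8 libraries for Txn1 (adjusted p = 0.07) and without the filter on low counts for Txn1 and Gusb (adjusted p = 0.0535 to 0.0732).

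Clock genes rose in 5 of 18 cases and fell in 0 (median 0.23), against 4.63% and 2.94% of all genes. Per2, a core repressor of the clock, was at 26.9, 28.6, 26 and 28.5 CPM in Young and 35.9, 42.1, 38.2 and 35.6 CPM in Old_CP2, against 25.9, 30.9, 34.4 and 29.9 CPM in vehicle Old (log2 fold change 0.47 ± 0.0803 SE, adjusted p = 0.00489; against vehicle Old adjusted p = 0.304). Nr1d2, a nuclear receptor of the clock, was at 117, 126, 132 and 131 CPM in Young and 151, 149, 153 and 147 CPM in Old_CP2, against 131, 133, 131 and 136 CPM in vehicle Old (log2 fold change 0.24 ± 0.0422 SE, adjusted p = 0.00493; against vehicle Old adjusted p = 0.276). Bhlhe40 and Bhlhe41, repressors that feed back on the clock, rose by 0.56 and 0.36 (adjusted p = 0.00962 and 0.00352). Treated libraries exceeded young ones in all 4. The activators Clock and Arntl were at -0.01 and -0.22 and the repressor Nr1d1 at -0.01, none called. The count was 8 without Old_CP2 15, and 5 without Old_CP2 11 and 15 and 3 with the choroid plexus term. No source used here gives the hour at which each brain was taken. In other settings calls were lost with the choroid plexus term for Bhlhe41 (adjusted p = 0.0591).

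Of 15 immediate early genes, induced within minutes of neuronal activity, 1 was called, although 12 had an unadjusted p under 0.05 (against 23.2% of all genes) and the median was 0.92. Fosl2, an AP-1 subunit, was at 21.6, 32.2, 25.7 and 30.1 CPM in Young and 64.7, 65.9, 39.9 and 36.3 CPM in Old_CP2 (log2 fold change 0.92 ± 0.192 SE, adjusted p = 0.0129). Old_CP2 11 and 12 were well above 13 and 15. Dusp1, a phosphatase of the same response, followed the same split at 20.1, 16.4, 23.5 and 31.3 CPM in Young and 54.2, 52.6, 29.9 and 28.4 CPM in Old_CP2 (log2 fold change 0.85 ± 0.295 SE, adjusted p = 0.0997) and was not called. The count was 2 without Young 4 or Old_CP2 13, 4 without Old_CP2 15 and 5 without Young 5, 4 in DESeq2, and 1 without Old_CP2 11 and 15 and 0 with the choroid plexus term. None of 12 glucocorticoid response genes was called in edgeR, with 5 at an unadjusted p under 0.05, 1 called by DESeq2 and 0 by limma voom. The edgeR count was 1 without Young 5 or Old_CP2 15, and 1 without Old_CP2 11 and 15 and 0 with the choroid plexus term. Pdk4, a kinase that holds back pyruvate entry, was at 9.86 ± 1.98 CPM in Young and 13.8 ± 3.18 in Old_CP2 (adjusted p = 0.0904). None of 15 genes of amyloid precursor processing and tau was called in edgeR, with 2 at an unadjusted p under 0.05, 1 called by DESeq2, 0 by limma voom and, in edgeR, 1 without Old_CP2 12. App, the amyloid precursor, was at 1373, 1466, 1497 and 1442 CPM in Young and 1567, 1578, 1538 and 1344 CPM in Old_CP2 (log2 fold change 0.06 ± 0.064 SE, adjusted p = 0.624). Mme, the amyloid-degrading protease neprilysin, was at 11.8 ± 1 CPM in Young and 14.2 ± 1.29 in Old_CP2 (adjusted p = 0.0682). Calls were lost with the choroid plexus term for Fosl2 (adjusted p = 0.106).

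Because the strain labels differ, 3 genes known to differ between laboratory strains were listed, and none was called in edgeR, DESeq2 or limma voom, with 0 at an unadjusted p under 0.05. Gene counts do not read sequence variants, so these tests cannot show whether strain background differs between the groups. Values of a pair of these genes follow. Nnt, the transhydrogenase that some C57BL/6 substrains lack in part, was at 20.6, 23, 25.8 and 24.5 CPM in Young and 26.5, 22.7, 22.5 and 27.3 CPM in Old_CP2, against 18.1, 27, 18.7 and 27.3 CPM in vehicle Old (log2 fold change 0.08 ± 0.134 SE, adjusted p = 0.785). The groups overlapped. Dysf, dysferlin, which is defective in SJL mice, was at 5.7, 5.01, 4.52 and 4.89 CPM in Young and 4.79, 3.9, 4.39 and 6.47 CPM in Old_CP2, against 4.59, 4.22, 4.53 and 4.4 CPM in vehicle Old (log2 fold change -0.04 ± 0.136 SE, adjusted p = 0.891), with the groups again overlapping. Xist was at 719, 713, 703 and 680.3 CPM in Young and 1029, 948, 1004 and 923 CPM in Old_CP2, against 1084, 1087, 1083 and 981 CPM in vehicle Old (log2 fold change 0.47 ± 0.0537 SE, adjusted p = 0.000503). All old libraries were above all young ones, and part of these reads may come from Tsix, which overlaps Xist on the other strand.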

How the data were processed

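The series holds 12 RNA-seq libraries of mouse brain. The deposited table gives, per the file headers, a raw gene count and an RPKM value for each library. Per the submitters' processing notes, the authors used bcl2fastq, TopHat, Subread and featureCounts with mm10, without versions in the sources used here. The deposited count columns were used for all tests. The deposited RPKM columns served only to check the counts, which sum to 79.9 to 85.4% of the total that RPKM implies. The library kit does not mark strand, and 36 of 157 named genes overlap another tested model.

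Genes passing edgeR's filterByExpr (22553 of 43346) were scaled by TMM and tested with edgeR 4.0.16 (quasi-likelihood F test, R 4.3.3) in 1 model that held all 12 libraries and no term other than the group. P-values were adjusted by Benjamini-Hochberg over all genes tested, and the threshold for a call was 0.05. A listed CPM is the count divided by the TMM-scaled library size, and errors after ± are SDs over 4 libraries unless marked SE. The scripts were tested on simulated data. DESeq2 1.42.0, limma voom (limma 3.58.1), RLE scaling, no filter on low counts, the 8 libraries alone, a choroid plexus term, and leaving out libraries were the alternatives.

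Eligible genes passed the test, averaged at least 1 CPM in the 8 libraries, did not overlap between groups and were no unnamed gene model or antigen receptor segment. In each direction the 7 with the largest change and the 5 further ones with the smallest p were named. From each list up to 4 called members with the smallest p were named, or 2 where none was called. A fixed set was always named. Some genes that these rules select are not reported here. Other members are given as examples chosen after their values were seen. The members and lists were chosen with earlier results of these data known. Lists share some members, such as Csf1, so their counts are not separate. Of 888 listed genes 877 matched by symbol and 8 by Ensembl ID. Counting intervals cover counting error only. Ribosomal RNA models held 3.04 to 5.53% of counts in the 8 libraries.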

Additional observations from a re-analysis of the deposited data

Results flagged for a closer look

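Within groups of 4 libraries, 14 values among 316 gene groups examined lay far from the other 3 relative to the range of their group. The limit used would set apart about 1 in 20 groups of normally distributed values. The genes were picked by their tests and some had few reads, so that rate need not hold here. The values are listed as a description. In Old_CP2 15, Slc6a4 was at 28.1 CPM, Tph2 at 49.6 CPM, Ggta1 at 4.61 CPM and Serpina3n at 25.4 CPM, the first pair above and the second pair below the other treated libraries. Old_CP2 11 was above the others for Pou4f2 (3.38 CPM), Igha (3.62 CPM) and Ctss (101 CPM). Old_CP2 13 was below the others for Ifit3b (4.99 CPM) and above them for Avp (2.88 CPM). Among young libraries, Young 3 was above for Pou4f2 (0.0111 CPM, a single read) and below for Adarb2 (46.5 CPM) and Gpx1 (49.9 CPM). Young 5 was above for Ngp (0.0223 CPM), and Young 1 was above for Amotl1 (182 CPM).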

How the results depend on the processing

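Against 1707 calls (1045 higher, 662 lower, 425 over 2-fold), DESeq2 made 2647 calls with 1098 lower. The choroid plexus term left 295 calls (217 higher, 78 lower, 121 over 2-fold), and omitting Old_CP2 11 and 15 left 491 (368 higher, 123 lower, 168 over 2-fold). Higher genes made up 73.6% and 74.9% of the calls in those fits, against 61.2%. Leaving out 1 library gave 827 to 1590 calls, 567 to 1055 higher, 260 to 550 lower and 244 to 469 over 2-fold. The cause of these moves was not tested, although fits without libraries hold fewer samples. RLE scaling, no filter on low counts, limma voom and the 8 libraries alone gave 1538 to 1764 calls. Of 138 named genes that were called, 96 were called without each library in turn, and the calls lost numbered 83 with the choroid plexus term, 68 without Old_CP2 11 and 15, 11 in the 8 libraries alone, 9 in limma voom, 5 without the filter and 0 with RLE scaling or DESeq2. Of 19 named genes that were not called, 12 were called in some alternative, 8 in DESeq2 (among them Aldoc, Kcnj8, Cnn1 and Acadl), 2 in the 8 libraries alone (Zic1 and Zic2), 1 in limma voom (Kcnj13) and 1 without Old_CP2 11 and 15 (Pdk4). Leaving out 1 library gained 5 of the calls, namely Mme without Old_CP2 12, Pfkfb3 without Old_CP2 13, Glul and Ndufa13 without Old_CP2 15, and Pdk4 without Old_CP2 15 or Young 5. Of genes that were not called, Ttr turned to 0.81 with the choroid plexus term (adjusted p = 0.379), and Nnt turned to -0.0451 without Old_CP2 11 and 15 (adjusted p = 0.917). No paired analysis was possible because the groups share no replicate number. Genes with few reads, such as Pou4f2 and Ngp in Young, are limited by depth.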
